A study of Mus musculus with 6 samples.

Results

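The sarcomere and contractile genes are 47 genes of 49671 in the expression files, chosen by gene name, with no level or fold change in the rule: 7 myosin heavy chains, 5 myosin light chains, 2 sarcomeric actins, 7 troponin subunits, 3 tropomyosins, 2 giant filament proteins, 3 myosin-binding proteins, 3 M-band genes, 9 Z-disc genes, 3 genes of the thin filament pointed end and 3 assembly factors. They were followed in muscle stem cells (MuSCs) of 6 female C57BL/6 mice aged 4 to 6 months. Both tibialis anterior (TA) muscles of each mouse received 50 µL of 1.2% BaCl2, an injury that destroys myofibers, and were pooled at day 3. In 3 mice, resolvin D1 (RvD1), a proresolving lipid mediator made from docosahexaenoic acid, was injected intraperitoneally each day at 100 ng, and in the other 3 mice the vehicle, 0.1% ethanol, was given. All 6 mice were injured, no group was left uninjured, and the sources used here name no transgene or deletion in either group. MuSCs were sorted as β1-integrin+ and CXCR4+ cells lacking Sca-1, CD11b, Ter119 and CD45, with CD31 added to the excluded antigens in the sample labels. Each library is 1 mouse, so spread within a group is spread between mice together with sorting and library preparation. Depth, as total expected counts, was 17962025 to 28149176 for the RvD1 group and 16148026 to 18755643 for the vehicle group.

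The sarcomere is the contractile unit of striated muscle, in which thick filaments of myosin pull on thin filaments of actin, and troponin and tropomyosin make that pull depend on calcium. Titin spans from Z-disc to M-band, nebulin runs along the thin filament, and the chaperone Unc45b and the methyltransferase Smyd1 act in the folding and assembly of myosin. Quiescent MuSCs carry little of this machinery. Myoblasts that leave the cell cycle under myogenin begin to transcribe it, first with embryonic and cardiac-type isoforms and later with the adult fast and slow isoforms of the fiber type.

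The sorted cells carried the markers of this lineage in every library. All 12 MuSC and myogenic markers were counted in each library, with Pax7, the factor that marks MuSCs, at 4.03 to 8.50 TPM (the RSEM level of a gene, corrected for transcript length and set to a fixed total per library) and Myog, the myogenin gene, at 818 to 1378 TPM. The 10 leukocyte markers summed to 36.3 to 60.2 TPM with RvD1 and 52.5 to 95.0 TPM with vehicle, and none was at 0 in all libraries. In bulk RNA, fewer cells expressing a gene and less of its RNA per cell cannot be told apart.

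The stretches before the transcription start of 5 members are shown because these genes lead their role by level (Myh3, Acta1, Mylpf and Klhl41) or had the most negative fold change (Smyd1). Of 10 windows looked at, these 5 hold no annotated exon. Each runs 5′ to 3′ over the 250 bases before the RefSeq start on GRCm38.p6, read on the gene's strand. Capitals mark E-boxes (CANNTG, the letters bound by myogenic basic helix-loop-helix factors such as myogenin), TATAAA on either strand, the CArG box (the serum response factor motif) and the MEF2 site. The Myh3 window is chr11:67078050-67078299 on the plus strand, the Acta1 window chr8:123894776-123895025 on the minus strand, the Mylpf window chr7:127211358-127211607 on the plus strand, the Klhl41 window chr2:69669870-69670119 on the plus strand and the Smyd1 window chr6:71262282-71262531 on the minus strand.
Myh3: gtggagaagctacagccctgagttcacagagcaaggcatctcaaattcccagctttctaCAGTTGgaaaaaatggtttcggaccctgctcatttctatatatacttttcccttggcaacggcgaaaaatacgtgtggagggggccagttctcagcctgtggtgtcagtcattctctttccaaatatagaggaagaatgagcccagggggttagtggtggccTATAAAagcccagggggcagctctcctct
Acta1: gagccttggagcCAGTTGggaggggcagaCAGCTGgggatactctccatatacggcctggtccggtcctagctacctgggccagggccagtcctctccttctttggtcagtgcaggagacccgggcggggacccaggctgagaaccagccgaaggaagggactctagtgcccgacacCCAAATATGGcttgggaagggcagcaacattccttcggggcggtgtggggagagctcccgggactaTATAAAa
Mylpf: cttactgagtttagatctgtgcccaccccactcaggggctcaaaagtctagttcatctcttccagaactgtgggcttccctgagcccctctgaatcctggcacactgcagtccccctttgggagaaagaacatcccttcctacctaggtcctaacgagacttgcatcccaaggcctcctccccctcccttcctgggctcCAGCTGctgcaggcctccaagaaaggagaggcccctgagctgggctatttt
Klhl41: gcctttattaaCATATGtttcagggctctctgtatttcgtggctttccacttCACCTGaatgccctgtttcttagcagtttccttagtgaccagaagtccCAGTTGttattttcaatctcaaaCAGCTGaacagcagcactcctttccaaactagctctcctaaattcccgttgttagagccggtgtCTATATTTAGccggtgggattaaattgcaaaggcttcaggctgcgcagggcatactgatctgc
Smyd1: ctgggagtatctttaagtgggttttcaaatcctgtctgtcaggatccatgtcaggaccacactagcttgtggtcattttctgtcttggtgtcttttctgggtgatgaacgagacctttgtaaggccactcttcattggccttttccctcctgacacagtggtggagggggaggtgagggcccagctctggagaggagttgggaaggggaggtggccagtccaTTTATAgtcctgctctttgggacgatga

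In the Myh3 window there was 1 E-box and a TATAAA that began 29 bases before the start. The Acta1 window held 2 E-boxes, 1 CArG box and a TATAAA 7 bases before the listed RefSeq start. The GENCODE model of Acta1 starts at 123894751, downstream of that RefSeq start. The Klhl41 window held 4 E-boxes and 1 MEF2 site, the Mylpf window 1 E-box, and the Smyd1 window no E-box and 1 TATAAA on the opposite strand. Across the members, 38 genes matched 45 RefSeq windows. CANNTG on both strands was found in 82.2% of them and in 66.2% of all 32851 windows of the same length, and its special case CAGCTG in 33.3% against 13.0%. TATAAA was found in 22.2% against 12.4%, and CATTCC, the letters of a TEAD factor motif, in 28.9% against 12.6%. The CArG box was found in 15.6% (7 windows of 6 genes) against 1.47%, and the MEF2 site in 6.67% (3 windows of 3 genes) against 0.508%. These are matches of letters, not measured binding, and the Mylpf and Smyd1 windows lie in introns of their GENCODE gene models, which start further upstream.

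RNA of most contractile genes was present in the sorted cells at day 3, with embryonic myosin as the leading heavy chain and the genes of adult type 2A, slow and cardiac myosins near the floor. Averaged over the 6 libraries, 17 members were at 100 TPM or more, 10 at 10 to 100 TPM, 12 at 1 to 10 TPM and 8 below 1 TPM. Together the 47 genes took 0.602%, 0.508% and 0.726% of all TPM with RvD1 (replicates 1, 2 and 3, the order used throughout) and 0.564%, 0.634% and 0.553% with vehicle. The lowest and the highest of these shares were both in the RvD1 group.

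**Figure D1:**
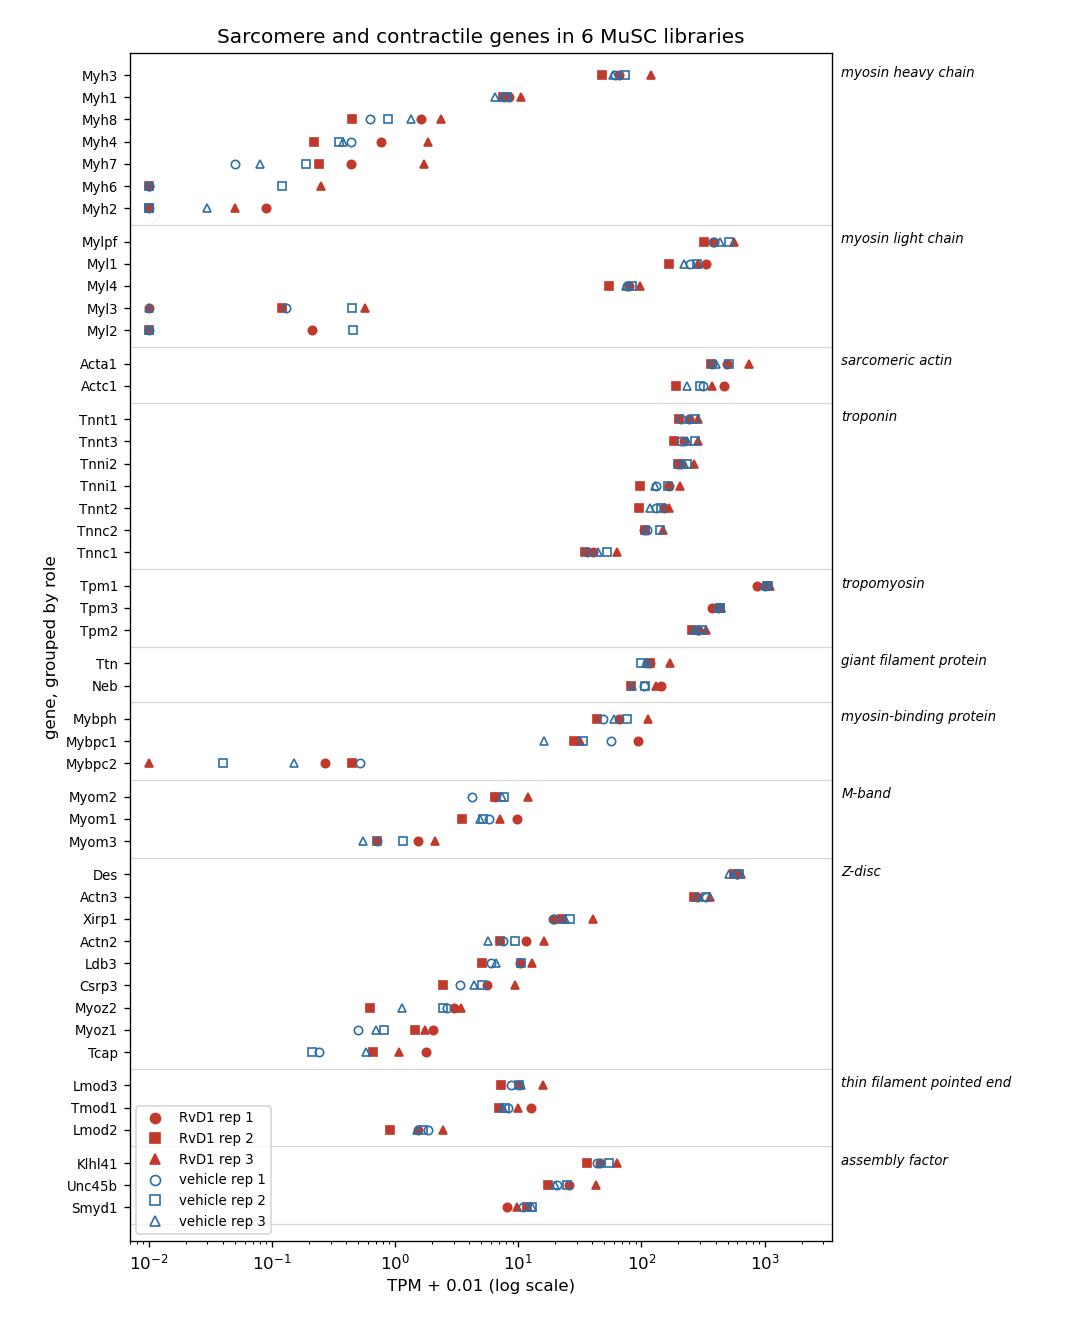
Level of each of the 47 genes, in TPM + 0.01 on a log axis, grouped by role and ordered by mean level within a role. Filled red symbols are the 3 RvD1 libraries and open blue symbols the 3 vehicle libraries, and points at 0.01 are genes listed at 0. Tpm1 leads at a mean of 1021 TPM, and Myh2, Myh6, Myl2 and Myl3 sit below 1 TPM in every library.

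Among the myosin heavy chains, the motors of the thick filament, Myh3, the embryonic form, was at 65.7, 48.3 and 119 TPM with RvD1 and at 60.9, 73.2 and 59.0 TPM with vehicle. The RvD1 group held both its lowest and its highest library. Myh1, the adult fast 2X form, was at 8.44, 7.55 and 10.4 TPM with RvD1 and at 7.71, 8.17 and 6.50 TPM with vehicle. Of the summed TPM of the 7 heavy chains, Myh3 made up 85.1% to 87.8% with RvD1 and 87.4% to 88.3% with vehicle, and Myh1 7.70% to 13.3% and 9.66% to 11.1%. Myh8, the perinatal form, was at 1.60, 0.44 and 2.33 TPM with RvD1 and at 0.62, 0.87 and 1.35 TPM with vehicle. Myh4, the adult fast 2B form, was at 0.76, 0.21 and 1.84 TPM with RvD1 and at 0.43, 0.34 and 0.37 TPM with vehicle. RvD1 replicates 1 and 3 lay above all vehicle libraries and replicate 2 below them.

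Myh7, the slow and ventricular form, was at 0.43, 0.23 and 1.70 TPM with RvD1 and at 0.04, 0.18 and 0.07 TPM with vehicle, from 5 to 24.6 counts a library in the first group and 2.42 to 12.2 in the second. All of its RvD1 values lay above the vehicle values in TPM, but not in TMM-scaled CPM (counts over a fixed library total, not corrected for length), the scale used for differences between groups, where RvD1 replicate 2 was at 0.178 and vehicle replicate 2 at 0.701. Myh2, the adult fast 2A form, was at 0.08, 0 and 0.04 TPM with RvD1 and at 0, 0 and 0.02 TPM with vehicle, and Myh6, the atrial form, was listed at 0 in 4 of 6 libraries and reached 0.24 TPM. In the genome, Myh3, Myh2, Myh1, Myh4 and Myh8 lie in this order on the plus strand of chromosome 11, from 67078300 to 67308634 on GRCm38. The gap between Myh2 and Myh1 is 2534 bases, so the gene with the lowest level of all members is the next neighbor of the heavy chain ranked behind Myh3.

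Of the light chains, which brace the myosin lever arm, Mylpf, the fast regulatory chain, was at 391, 325 and 569 TPM with RvD1 and at 385, 511 and 437 TPM with vehicle. Myl1, the fast essential chain, was at 336, 167 and 289 TPM with RvD1 and at 249, 281 and 220 TPM with vehicle. Myl4, the embryonic and atrial essential chain, was at 78.6, 54.5 and 97.4 TPM with RvD1 and at 76.1, 84.0 and 75.3 TPM with vehicle. In all 3, RvD1 replicate 2 was the lowest of the 6 libraries. The slow and cardiac chain Myl2 was at 0.20, 0 and 0 TPM with RvD1 and at 0, 0.45 and 0 TPM with vehicle, and Myl3 stayed at or below 0.56 TPM.

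Acta1, skeletal α-actin, was at 492, 370 and 751 TPM with RvD1 and at 376, 512 and 406 TPM with vehicle. Actc1, cardiac α-actin, which developing skeletal muscle also uses, was at 466, 190 and 376 TPM with RvD1 and at 314, 298 and 234 TPM with vehicle. The highest RvD1 library was replicate 3 for Acta1 and replicate 1 for Actc1. Both RvD1 ranges contained the vehicle range.

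Each of the 3 troponin subunits was present in its fast and its slow or cardiac form. Troponin T, which anchors the complex to tropomyosin, was found at a mean of 244 TPM as the slow gene Tnnt1, 235 TPM as the fast gene Tnnt3 and 134 TPM as the cardiac gene Tnnt2. Tnnt1 was at 245, 203 and 289 TPM with RvD1 and at 210, 275 and 243 TPM with vehicle. Tnnt3 was at 220, 185 and 291 TPM with RvD1 and at 211, 272 and 233 TPM with vehicle, and Tnnt2 at 152, 95.6 and 166 TPM and at 131, 144 and 117 TPM. Replicate 2 was the lowest and replicate 3 the highest RvD1 library for all 3.

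Troponin I, the inhibitory subunit, was higher as the fast gene Tnni2 than as the slow gene Tnni1. Tnni2 was at 208, 199 and 268 TPM with RvD1 and at 197, 235 and 223 TPM with vehicle, and Tnni1 at 166, 98.0 and 207 TPM and at 132, 165 and 129 TPM. Troponin C, the calcium sensor, was at 105, 107 and 151 TPM with RvD1 and at 111, 142 and 109 TPM with vehicle as the fast gene Tnnc2. As the slow and cardiac gene Tnnc1 it was at 40.1, 35.2 and 63.9 TPM with RvD1 and at 35.9, 52.4 and 44.6 TPM with vehicle. Tnni1 and Tnnt2 lie 25364 bases apart on chromosome 1, and Tnni2 and Tnnt3 54425 bases apart on chromosome 7.

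The tropomyosins, the coiled coils that cover the myosin sites on actin, varied less. Tpm1 was at 868, 1043 and 1103 TPM with RvD1 and at 1009, 1066 and 1034 TPM with vehicle. Tpm3 was at 374, 432 and 445 TPM with RvD1 and at 421, 431 and 446 TPM with vehicle. For these genes RvD1 replicate 1, not replicate 2, was the lowest library. Tpm2 ranged from 257 to 333 TPM. Tpm1 and Tpm3 also encode tropomyosins of non-muscle cells, and these values per gene do not separate the isoforms.

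Ttn, the gene of titin, was at 116, 117 and 172 TPM with RvD1 and at 112, 98.6 and 110 TPM with vehicle, and Neb, that of nebulin, at 145, 82.6 and 131 TPM and at 105, 107 and 83.8 TPM. Mybph, the gene of myosin-binding protein H, was at 65.9, 43.6 and 113 TPM with RvD1 and at 49.0, 75.7 and 60.1 TPM with vehicle. Mybpc1, the slow myosin-binding protein C, was at 94.1, 28.4 and 31.9 TPM with RvD1 and at 56.5, 33.7 and 16.3 TPM with vehicle, so replicate 1 was the highest library of each group. Its fast counterpart Mybpc2 stayed at or below 0.51 TPM. Of the myomesins, which cross-link thick filaments at the M-band, Myom2 was at 6.50, 6.50 and 11.9 TPM with RvD1 and at 4.17, 7.67 and 7.44 TPM with vehicle. Myom1 ranged from 3.50 to 9.70 TPM and Myom3 from 0.54 to 2.11 TPM over the 6 libraries.

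At the Z-disc, where thin filaments of adjoining sarcomeres are joined, Des, the gene of the intermediate filament desmin, was at 602, 568 and 643 TPM with RvD1 and at 598, 626 and 517 TPM with vehicle. Actn3, the fast α-actinin, was at 285, 269 and 358 TPM with RvD1 and at 335, 332 and 284 TPM with vehicle, while Actn2, the α-actinin of all striated fibers, was at 11.5, 7.13 and 16.1 TPM and at 7.58, 9.48 and 5.63 TPM. Myoz1 and Myoz2 encode calcineurin-binding proteins of the Z-disc, in fast and in slow and cardiac muscle. Myoz1 was at 2.04, 1.45 and 1.73 TPM with RvD1 and at 0.49, 0.81 and 0.69 TPM with vehicle, and the groups did not overlap. Myoz2 was at 2.98, 0.62 and 3.43 TPM with RvD1 and at 2.65, 2.46 and 1.13 TPM with vehicle, with overlap. Xirp1, an actin-binding protein, ranged from 19.2 to 40.7 TPM, Ldb3, a PDZ-LIM protein, from 5.04 to 13.0 TPM, and Csrp3, muscle LIM protein, from 2.44 to 9.35 TPM. Tcap, the gene of telethonin, which caps titin at the Z-disc, was at 0.65 to 1.76 TPM with RvD1 and at 0.20 to 0.57 TPM with vehicle, which is 10 to 20 counts a library against 2 to 6.

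At the pointed end of the thin filament, Lmod3, a leiomodin that nucleates actin, was at 10.2, 7.21 and 15.8 TPM with RvD1 and at 8.65, 10.1 and 10.5 TPM with vehicle. Lmod2 was at 1.54, 0.90 and 2.44 TPM with RvD1 and at 1.84, 1.68 and 1.49 TPM with vehicle, and Tmod1, the capping tropomodulin, ranged from 7.02 to 12.6 TPM. Klhl41, which stabilizes nebulin, was at 46.4, 36.0 and 63.1 TPM with RvD1 and at 43.3, 54.6 and 45.8 TPM with vehicle. Smyd1, a methyltransferase that acts in myosin assembly, was at 8.16, 11.8 and 9.83 TPM with RvD1 and at 10.8, 13.0 and 13.0 TPM with vehicle. Unlike Klhl41 and the myosin chaperone Unc45b, which were highest in RvD1 replicate 3, it had its lowest library in RvD1 replicate 1. Unc45b ranged from 17.6 to 42.4 TPM.

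Ranked by mean TPM, Tpm1 was above Des, the next gene, in 6 of 6 libraries. Tnni2 was above Tnni1 and Tnni1 above Tnnt2 in 6 of 6, and so was Neb above Myl4. Actc1 was above Actn3 in 2 of 6 libraries, Mylpf above Tpm3 in 3 of 6 and Myh3 above Mybph in 3 of 6, so these neighbors did not differ beyond their spread.

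Set side by side within a library, 12 pairs of related genes were compared as the log2 ratio of TPM + 0.1. In 10 of the 12 pairs the same gene was higher in all 6 libraries. For each of these the exact sign permutation test (two-sided) gave p = 0.03125, the smallest it can give. Benjamini-Hochberg adjustment over the 12 pairs made it 0.0375. The pairs were chosen with earlier results of these data known, so these p-values only restate that the 6 signs agreed. The mean log2 ratio was 5.89 ± 0.55 (SD, n = 6) for Myh3 to Myh8 and 6.78 ± 0.57 for Myh3 to Myh4. It was -5.08 ± 0.46 for Actn2 to Actn3. The early and cardiac-type genes were closer to their adult skeletal partners in the actins, at -0.65 ± 0.38 for Actc1 to Acta1, and in troponin T, at -0.81 ± 0.18 for Tnnt2 to Tnnt3. Myl4 to Myl1 stood at -1.71 ± 0.20, Tnni1 to Tnni2 at -0.60 ± 0.26 and Tnnc1 to Tnnc2 at -1.43 ± 0.16. For Myh2 to Myh1 (-6.08 ± 0.33) and Myl2 to Mylpf (-11.39 ± 1.04) the size and the spread were set by the added 0.1 TPM, since Myh2 was below 0.1 TPM in every library and Myl2 was listed at 0 in 4, so only the direction of these pairs can be read. Tnnt1 was above Tnnt3 in 4 of 6 libraries (0.06 ± 0.07, exact permutation p = 0.15625) and Myoz2 above Myoz1 in 5 of 6 (0.79 ± 1.12, exact permutation p = 0.15625).

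No pair changed its ratio with RvD1 by the exact permutation test over 3 against 3 libraries, which can reach no p below 0.1, and the smallest of the 12 was 0.2. That value was met by Actn2 to Actn3, at a mean log2 ratio of -4.77 ± 0.40 (SD, n = 3) with RvD1 and -5.40 ± 0.26 with vehicle, and by Myoz2 to Myoz1, at 0.12 ± 1.08 and 1.45 ± 0.79. The adjusted p was 0.9 for every pair.

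**Figure D2:**
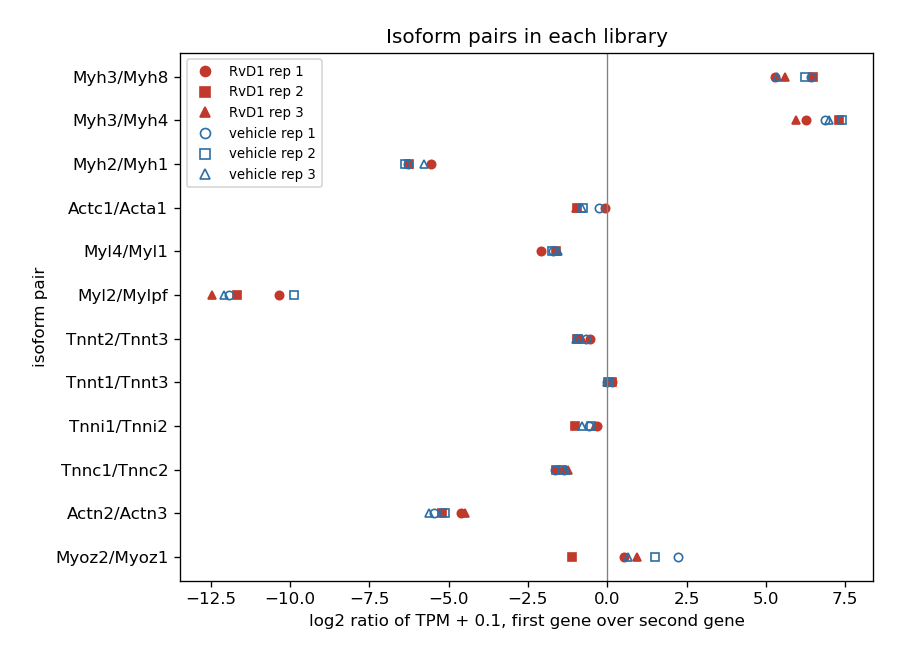
Log2 ratio of TPM + 0.1 of the first over the second gene for 12 isoform pairs, 1 point a library, with filled red symbols for RvD1 and open blue symbols for vehicle. In 10 pairs all 6 points lie on the same side of the line at 0, and RvD1 and vehicle points overlap in each pair.

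Between RvD1-treated and vehicle-treated mice, no sarcomere gene passed the test. edgeR's quasi-likelihood test could be run for 41 of the 47 genes, since Myh2, Myh6, Myl2, Myl3, Mybpc2 and Tcap did not pass the count filter. At an adjusted p under 0.05 it called 0 of 41, as it called 0 of all 14494 genes tested (background 0%), and the smallest adjusted p of a member was 0.971. At an unadjusted p under 0.05 edgeR called 1 member, Myoz1 (2.44%), against 3.47% of all genes. By the sign of the fold change 24 members were higher with RvD1 (58.5%) and 17 lower, where 53.5% of all genes were higher, and the median log2 fold change was 0.09 against 0.01. On log2(TPM + 1) with limma the split was 31 higher and 10 lower, with a median of 0.16 against 0.08 for all genes. With 1 surrogate variable removed, after the study's methods, and without a count filter, limma-voom called 0 of 47 members among 26518 genes, with a smallest adjusted p of 0.285.

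By role, the signs were 5 higher and 0 lower for the heavy chains tested, 0 and 3 for the light chains and 2 and 0 for the actins. They were 1 and 6 for the troponins, 0 and 3 for the tropomyosins and 3 and 0 for the myomesins. The Z-disc genes had 6 and 2, the assembly factors 1 and 2 and the pointed-end genes 2 and 1. Giant filament proteins and myosin-binding proteins had 2 and 0 each. Of all genes, 53.5% were higher. The median log2 fold change of these groups ran from -0.12 for the tropomyosins to 0.42 for the heavy chains. By isoform class, 3 of 5 developmental genes, 4 of 10 adult fast genes, 6 of 9 slow or cardiac genes and 11 of 17 genes shared between fiber types were higher. None of these counts rests on a gene that passed the adjusted threshold. Some signs depended on the scale. On log2(TPM + 1) with limma, Tnnt1, Tnnt2, Tnnc1, Tnni2, Myl1 and Des, lower in edgeR, were higher with RvD1.

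Counts of Myoz1 were 30, 22 and 17 with RvD1 and 6, 8 and 10 with vehicle. On CPM it was at 1.03 ± 0.30 (SD, n = 3) with RvD1 and 0.46 ± 0.09 with vehicle, a log2 fold change of 1.15 ± 0.43 (SE) with an adjusted p of 0.971 by edgeR and an unadjusted p of 0.0263. All of its RvD1 libraries lay above all vehicle libraries, which held for 1 of 41 members (2.44%) and 4.77% of all genes, and the opposite order held for 0 members and 4.84% of all genes. Its unadjusted p in edgeR rose above 0.05 when RvD1 replicate 1, vehicle replicate 1 or vehicle replicate 2 was left out, and it was above 0.05 with DESeq2.

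The other large fold changes came with large errors. Myh4 had a log2 fold change of 1.21 ± 0.65 (SE) and Myh7 of 1.15 ± 0.81, with RvD1 replicate 2 below every vehicle library for Myh4. Without RvD1 replicate 3 these values were 0.26 for Myh4 and 0.59 for Myh7, without RvD1 replicate 2 they were 1.70 and 1.66, and without vehicle replicates 1 and 2 in turn Myh7 was at 0.77 and 1.99. With limma-voom they were 0.57 and 0.77. The most negative value was that of Smyd1, at -0.41 ± 0.19, for which RvD1 replicate 2 (24.1 CPM) lay above vehicle replicate 1 (21.9 CPM). Lmod2 was at -0.14 ± 0.38 and Tpm3 at -0.14 ± 0.11. The edgeR adjusted p was 0.971 for Myh4, Myh7, Smyd1 and Tpm3 and 0.978 for Lmod2. Among the abundant genes, the log2 fold change was 0.18 ± 0.27 for Myh3, 0.22 ± 0.23 for Acta1, 0.19 ± 0.26 for Actc1, -0.04 ± 0.16 for Mylpf and -0.12 ± 0.11 for Tpm1.

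**Figure D3:**
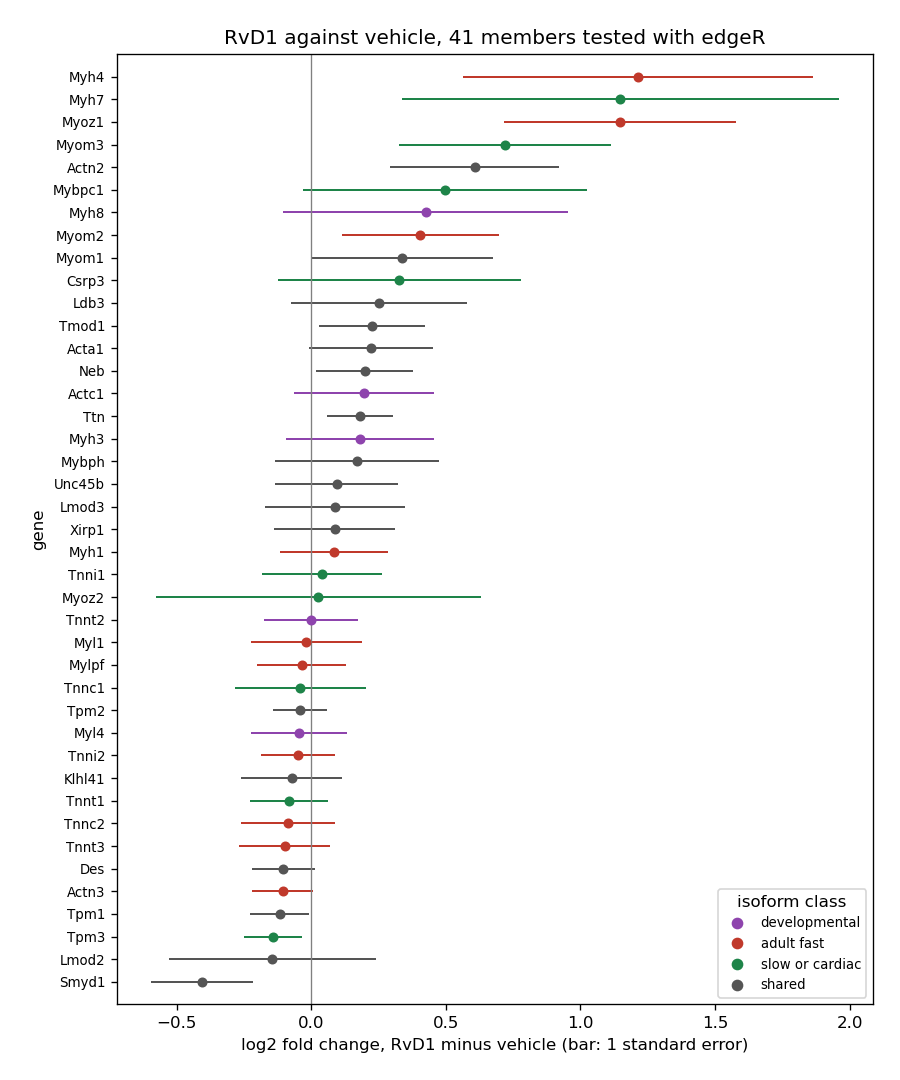
Log2 fold change, RvD1 minus vehicle, of the 41 genes tested with edgeR, ordered by value, with bars of 1 standard error and colors for the isoform class. Values run from -0.41 for Smyd1 to 1.21 for Myh4, and no gene passed an adjusted p of 0.05.

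The levels of most members differed among the 3 RvD1-treated mice. RvD1 replicate 3 was the highest of the 6 libraries for 28 of 41 members (68.3%, against 18.9% of all genes tested), and RvD1 replicate 2 the lowest for 27 (65.9%, against 12.2%). Both held for 21 genes, among them Myh3, Myh4, Mylpf, Acta1, Tnnt2, Tnnt3, Tnni1, Tpm2, Mybph, Actn3, Csrp3, Lmod3, Unc45b and Klhl41. In 5 others, Myl1, Actc1, Neb, Myom1 and Tmod1, RvD1 replicate 1 was the highest and replicate 2 the lowest. Tpm1, Des and Tnnc2 had their highest value in vehicle replicate 2 and their lowest in RvD1 replicate 1. On log2(TPM + 0.1) in place of CPM, the counts were 32 members highest in RvD1 replicate 3 and 26 lowest in replicate 2.

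The CPM in RvD1 replicate 3 over that in RvD1 replicate 2 had a median of 1.68-fold over the 41 members, from 0.792-fold for Smyd1 to 8.58-fold for Myh4. It was 2.36-fold for Myh3, 1.94-fold for Acta1, 2.49-fold for Mybph, 1.98-fold for Tnni1 and 0.976-fold for Tpm1. From lowest to highest library, the range was 1.85-fold within RvD1 and 1.30-fold within vehicle in the median, and for 28 of 41 members the RvD1 range contained the vehicle range. Myh4 ranged over 8.58-fold within RvD1 and 1.21-fold within vehicle.

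**Figure D4:**
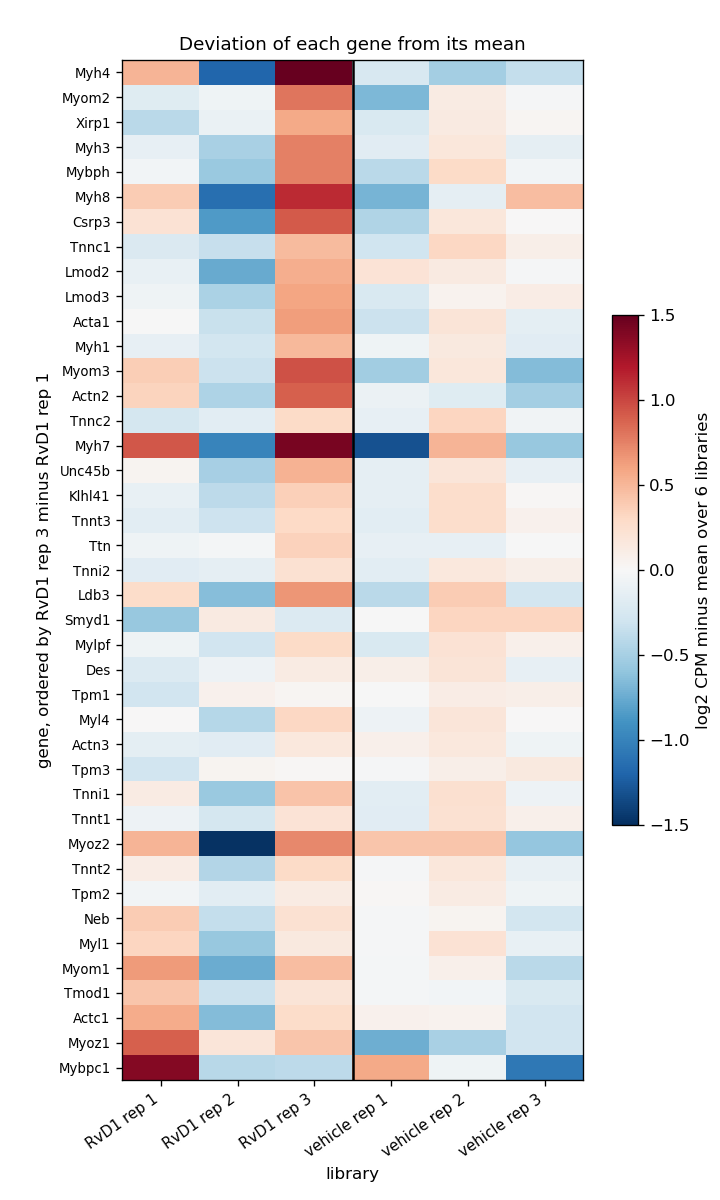
Deviation of log2 CPM from the gene's mean over 6 libraries, for 41 genes in rows and 6 libraries in columns, red above and blue below the mean, with colors saturating at 1.5. RvD1 rep 3 is the highest library for 28 genes and RvD1 rep 2 the lowest for 27, and the black line parts RvD1 from vehicle.

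The SD of log2 CPM was larger in the RvD1 than in the vehicle libraries for 41 of 41 members, and for 69.6% of all genes tested. The median SD of the members was 0.470 with RvD1 and 0.201 with vehicle, and that of all genes 0.226 and 0.144. Leaving out RvD1 replicate 3 reduced the count to 27 (61.5% of all genes), leaving out replicate 2 to 31 (63.9%) and leaving out replicate 1 to 36 (45.5%). SDs over 3 libraries are imprecise, and no test was made of them. This measure and the counts of highest and lowest libraries were chosen after seeing the data.

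**Figure D5:**
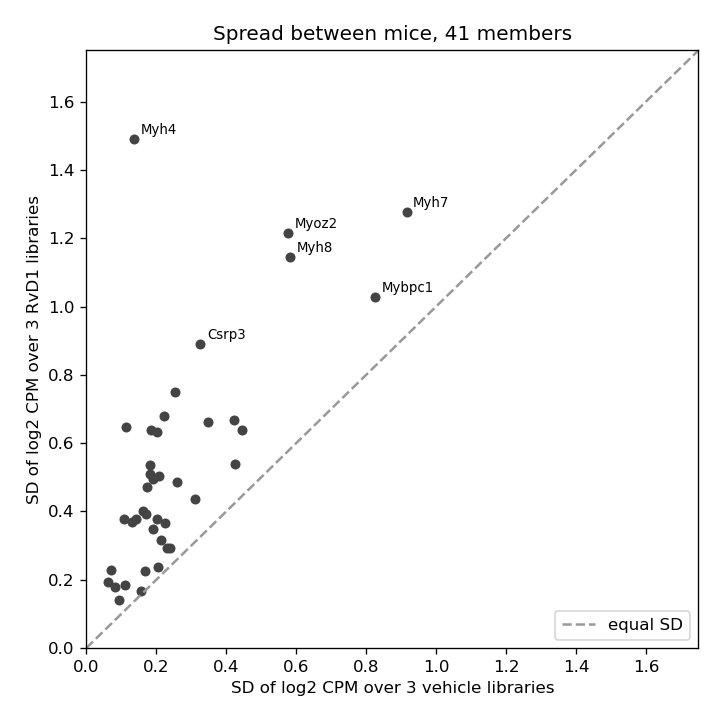
SD of log2 CPM over 3 RvD1 libraries against that over 3 vehicle libraries, 1 point for each of 41 genes, with a dashed line where both are equal. All 41 points lie above the line, and genes with an RvD1 SD above 0.8 are named.

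The direction of the group difference rested on these mice. Without RvD1 replicate 2, 35 members were higher and 6 lower with RvD1, with a median log2 fold change of 0.27 and 10 members (24.4%) at an unadjusted p under 0.05 in edgeR, against 6.83% of all genes in that fit. Without RvD1 replicate 3, 12 were higher and 29 lower, with a median of -0.18. Leaving out vehicle replicate 2 gave 36 higher and 6 lower, with a median of 0.17. In each case 0 members passed an adjusted p of 0.05 in edgeR.

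Other measures differed between the same libraries. Myog was at 972, 870 and 1378 TPM with RvD1 and at 818 to 974 TPM with vehicle, so it too was highest in RvD1 replicate 3. Myf5, a factor of proliferating myoblasts, was at 220, 159 and 101 TPM with RvD1 and at 127 to 160 TPM with vehicle. Myod1, of the same list, ran the other way, at 239, 382 and 470 TPM with RvD1 and 325 to 376 TPM with vehicle. Pax7 was at 8.50, 4.68 and 4.58 TPM with RvD1 and at 4.03 to 6.63 TPM with vehicle. The 10 proliferation markers, none at 0, summed to 1786, 2350 and 2543 TPM with RvD1 and to 2268 to 2479 TPM with vehicle. The 6 fibro-adipogenic markers, none at 0, summed to 1686, 725 and 1061 TPM with RvD1 and to 836 to 911 TPM with vehicle. By sign 5 of 6 were higher and 1 lower. The lower one was Ly6a, the gene of Sca-1, at 17.3 to 25.4 TPM with RvD1 and 26.3 to 39.7 TPM with vehicle. Its unadjusted p in edgeR was 0.0141 and its adjusted p 0.971. The 6 smooth muscle and pericyte markers, of which 6 were higher by sign and none was at 0, summed to 592, 287 and 434 TPM with RvD1 and to 313 to 408 TPM with vehicle. RvD1 replicate 2, also the deepest library, was the lowest library of both of these sums. Most of the second sum was Acta2, at 512, 250 and 378 TPM with RvD1 and 271 to 365 TPM with vehicle. Myh11, Cnn1, Tagln, Rgs5 and Pdgfrb each had their lowest TPM in a vehicle library. The part of these measures in the spread of the sarcomere genes was not tested.

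Markers of mature fibers, which the sort does not target, were present in all libraries, with Atp2a1, the fast calcium pump of the sarcoplasmic reticulum, at 127 to 232 TPM and Pvalb, the calcium buffer of fast fibers, at 0.09 to 1.14 TPM. The 9 fiber markers summed to 1074, 1431 and 1652 TPM with RvD1 and to 1418 to 1586 TPM with vehicle, most of it Eno3, a glycolytic enzyme, at 783, 1245 and 1383 TPM with RvD1. Without Eno3 the other 8 summed to 290, 185 and 269 TPM with RvD1 and to 165 to 240 TPM with vehicle, most of it Atp2a1. RvD1 replicate 2 was the lowest RvD1 library of this sum, and vehicle replicate 3 was the lowest library of both groups. edgeR tested 8 of the 9 fiber markers, with Eno3 and without Pvalb. Of these, 5 were higher and 3 lower by sign, and 0 passed an adjusted p of 0.05. Their part in the levels of the adult isoforms was not tested.

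The counting limits some of these values. RSEM left fractional counts, from reads shared between genes or transcripts, in 20 of the 47 genes, including 7 of 7 heavy chains and Acta1, while 27 had whole counts in every library within a tolerance of 0.001. The annotation lists a gene on the opposite strand over 23 members and on the same strand over 7, counted over whole gene spans with introns. The library kit does not mark strand, so where exons of a member and a partner overlap, strand cannot tell their reads apart. How many of these overlaps touch exons was not counted.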

How the data were processed

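RNA-Seq was performed on FACS-sorted MuSCs of 6 mice, 3 per group (SMART-Seq v4, Nextera XT, 76-bp single-end reads). The authors aligned reads with STAR 2.5.0a to mm10 and quantified genes with RSEM, whose version and annotation release are not given in the sources used here. The deposited expected counts were RSEM estimates without scaling for depth. RSEM also gave the deposited TPM values, which the authors scaled for length and to a fixed total per library, and the deposited FPKM values, scaled for length and fragment number. The labels give 1 ng of RNA input, which differs from the study's methods.

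Expected counts were rounded to whole numbers and tested with edgeR 4.0.16 (R 4.3.3), using TMM factors, filterByExpr by group, the quasi-likelihood test, and Benjamini-Hochberg adjustment over all 14494 genes tested at a threshold of 0.05. Standard errors came from the fold change and its F statistic. Log2 CPM used a prior count of 2. Levels between genes were compared on TPM only. Isoform pairs used exact permutation tests in scipy 1.17.1. Alternatives were DESeq2 1.42.0, RLE factors, no filter or more than 1 CPM in 3 libraries, robust estimation, a replicate block, limma 3.58.1 on voom or on log2 TPM or FPKM values, sva 3.50.0 with 1 surrogate variable removed and no count filter (26518 genes), and each replicate left out. Scripts were tested on simulated data.

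Replicate numbers recur in both groups and belong to different mice. The 47 members, the other gene lists and the pairs were chosen with earlier results of these data known. Values in every library are given for the gene with the highest mean TPM in each role, the genes of the pairs, members with an unadjusted p under 0.05 and the 3 largest fold changes in each direction. Other genes given by library or in CPM were chosen after their values were seen. Positions came from GENCODE on GRCm38 and windows from RefSeq on GRCm38.p6. Reads carry no molecular identifiers, so counts of a few reads carry counting error that no interval here covers.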

Additional observations from a re-analysis of the deposited data

How the results depend on the processing

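In every alternative, 0 sarcomere genes and 0 other sarcomere genes passed an adjusted p of 0.05, and the fold changes of Myoz1 and Myh7 rest on few reads, with means of 15.5 and 11.7 counts a library. Over all genes, 12 passed without the count filter and 0 to 1 with a replicate left out (1 without RvD1 replicate 3). Members at an unadjusted p under 0.05 numbered 0 with DESeq2 and with more than 1 CPM in 3 libraries, 5 of 47 without the filter (10.6%, against 4.29% of all genes: Myh4, Actn2, Tcap, Myoz1 and Smyd1), 2 with the replicate block (4.88% against 6.18%: Myoz1 and Smyd1), 3 of 47 with surrogate variables removed and no count filter (6.38% against 11.2%: Tcap, Myoz1 and Smyd1), 2 on log2(TPM + 0.1) (4.88% against 4.32%: Myh7 and Myoz1) and 1 to 10 with a replicate left out (10 without RvD1 replicate 2, 24.4% against 6.83%). The replicate block gave 23 members higher. Deviations of same-numbered libraries correlated at 0.31, -0.0007 and 0.13 over all genes, and those of different-numbered libraries at -0.25 to 0.17. Over the members the same-numbered values were 0.45, -0.30 and 0.28, and the others -0.59 to 0.27. These values do not settle whether the numbers are pairs, and the main fit did not take them as pairs. Members higher with RvD1 numbered 12 to 36 with a replicate left out (12 without RvD1 replicate 3, 35 without RvD1 replicate 2 and 36 without vehicle replicate 2). Members with a larger SD with RvD1 numbered 27 to 36 with an RvD1 replicate left out, 27 without replicate 3. The counts of larger SDs and of the highest and lowest library were chosen after seeing the data. So were their alternatives with a replicate left out and on log2(TPM + 0.1).

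Some log2 fold changes changed sign, none of them past the adjusted threshold, and the cause was not tested. The sign changed for Tnnt2 with more than 1 CPM in 3 libraries (0.0018), for Myoz2 with the replicate block (-0.14), for Lmod3 (-0.0263), Tnni1 (-0.0158) and Myoz2 (-0.32) with limma-voom, and for Actc1 (-0.0175), Tnni1 (-0.0622) and Myoz2 (-0.51) with surrogate variables removed and no count filter. On log2(TPM + 1) and log2(TPM + 0.1) it changed for Tnnt1 (0.0118 in both), Des (0.0609 and 0.061), Tnnt2 (0.0408 in both), Tnnc1 (0.0349 and 0.0351), Myl1 (0.025 and 0.0248) and Tnni2 (0.0343 and 0.0344), on log2(TPM + 0.1) also for Myoz2 (-0.0485), and on log2(FPKM + 1) for Des (0.0133). With counts not scaled for length, the mean log2 ratio was -0.0058 for Tnnt1 to Tnnt3 and 0.0077 for Tnni1 to Tnni2. With a replicate left out, log2 fold changes ran from -0.0899 to 0.41 for Acta1, -0.0698 to 0.47 for Actc1, -0.30 to 0.0847 for Klhl41, -0.55 to 0.14 for Lmod2, -0.25 to 0.31 for Lmod3, -0.26 to 0.43 for Mybph, -0.18 to 0.23 for Myh1, -0.26 to 0.42 for Myh3, -0.16 to 0.85 for Myh8, -0.20 to 0.20 for Myl1, -0.24 to 0.13 for Myl4, -0.21 to 0.0901 for Mylpf, -0.36 to 0.50 for Myoz2, -0.33 to 0.11 for Tnnc1, -0.27 to 0.0605 for Tnnc2, -0.19 to 0.27 for Tnni1, -0.19 to 0.0222 for Tnni2, -0.22 to 0.0182 for Tnnt1, -0.16 to 0.18 for Tnnt2 and -0.30 to 0.0214 for Tnnt3. The lowest of these came without RvD1 replicate 3 except for Actc1 and Myl1 (without RvD1 replicate 1), and the highest without RvD1 replicate 2 except for Tnnc2 (without vehicle replicate 2) and Tnni2 (without RvD1 replicate 1).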

Other observations

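A further list of 38 sarcomere-associated genes outside the 47 was measured in the same libraries. edgeR tested 29 of them, and by sign RvD1 was higher for 18 and lower for 11, with a median log2 fold change of 0.07, and none passed an adjusted or an unadjusted p of 0.05. The most abundant were Ankrd1, a stress-responsive titin-binding protein, at 267 to 350 TPM, Cryab, a small heat shock protein of the Z-disc, at 174 to 253 TPM, and Pdlim7, a PDZ-LIM protein, at 154 to 204 TPM. Klhl40, the relative of Klhl41, was at 31.6 to 60.7 TPM with its highest value in RvD1 replicate 3. The cardiac genes Mybpc3, Mybphl and Myl7 were listed at 0 in all 6 libraries. Tnni3, the cardiac troponin I, was at 1.36 to 3.27 TPM, where Tnni1 and Tnni2 were at 98.0 TPM or more.

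A list of genes named here non-muscle contractile genes took a larger share of the RNA in sum, most of it from a few genes. The name describes the list, and bulk RNA does not show which cells carried these transcripts. The 15 genes of this list summed to 21331 to 22623 TPM with RvD1 and 21258 to 21792 TPM with vehicle, against 5056 to 7235 TPM and 5510 to 6316 TPM for the 47 sarcomere genes. Actb, the cytoplasmic β-actin, alone was at 9511 to 10649 TPM, while Myh10, a non-muscle myosin, was at 14.0 to 19.7 TPM, below many sarcomere genes. By sign 3 of the 15 were higher and 12 lower with RvD1, with a median log2 fold change of -0.05, and none passed an adjusted or unadjusted p of 0.05 in edgeR. The 10 leukocyte markers were lower by sign in 10 of 10, where 53.5% of all genes were higher. Lyz2, Ctss and Tyrobp were at an unadjusted p under 0.05 in edgeR, as were 3.47% of all genes. Of 7 endothelial markers 1 was higher and 6 were lower. In both lists 0 genes passed an adjusted p of 0.05 in edgeR.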
